A study of Rattus norvegicus with 8 samples.

Results

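The genes described here are 47 genes of mitosis and the mitotic spindle, written by gene symbol from general knowledge of cell division with earlier results of these data known, by a rule that uses no measured value. All 47 were found in the deposited table, with 1 row each among its 31699 rows. They were measured by RNA-seq in annulus fibrosus cells (AFCs), the fibroblast-like cells of the outer ring of the intervertebral disc, cultured from Sprague Dawley rats. In 4 samples the AFCs had received the control lentiviral vector pLVX-shRNA-Puro (Lv-Ctrl), and in the other 4 samples pLVX-shRNA-Puro-Piezo1, a lentivirus with a short hairpin RNA against the mechanically gated ion channel Piezo1 (Lv-Piezo1). All 8 samples were under mechanical stretch, applied to induce apoptosis, and no unstretched or uninfected sample was compared here. The AF tissue of several rats was pooled for each isolation, and the methods give an age for the rats of the animal experiments but not for those used for isolation. The methods describe the samples of a group as biological repeats, while the labels do not tie a sample to an isolation, so the p-values below measure the spread between these samples. The question addressed was whether the transcripts of the mitotic machinery differ between stretched AFCs with the control vector and those with the Piezo1 vector.

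A dividing cell enters mitosis when the kinase Cdk1 is switched on by its cyclin partners. Chromosomes condense and attach through kinetochores to the microtubules of the spindle, a checkpoint holds the cell until every chromosome is attached, and the anaphase-promoting complex (APC/C) then marks securin and cyclin B for destruction so that the chromosomes part and the cell cleaves. Most of these genes are transcribed in the G2 and M phases of the cell cycle. In a bulk sample their transcripts are thus carried mainly by cycling cells, whose share was not measured here. AF cells of the adult disc are known for slow turnover, while AFCs in culture divide.

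Many mitotic promoters are known to carry a cell cycle homology region (CHR) a short distance upstream of the start of transcription, bound by the MuvB complexes, and CCAAT boxes, bound by NF-Y. The 250 bases before the RefSeq start were searched on both strands for CCAAT, for the CHR letters TTTGAA or TTCGAA, and for the E2F letters TTCCCGC or TTGGCGC, in the RefSeq promoter table of the rat assembly GRCr8. A window was matched by symbol for 40 of the 47 genes. The 5 shown here hold both a CHR match and 3 or more CCAAT matches, and let a reader see how these letters repeat within a short window. They have the most CCAAT matches among the genes with a CHR match, with ties broken by the size of the measured log2 fold change. By that tie rule Pttg1 is shown, while Bub3, Ect2, Ccnb2, Ncapg and Cdk1, which also hold a CHR match and 3 CCAAT matches, are not. Each sequence runs 5′ to 3′ on the strand of the gene and ends at the base before the RefSeq start, with CCAAT and CHR matches on either strand in capitals and E2F letters left in lower case.
Cdca8, chr5:142483200-142483449, minus strand: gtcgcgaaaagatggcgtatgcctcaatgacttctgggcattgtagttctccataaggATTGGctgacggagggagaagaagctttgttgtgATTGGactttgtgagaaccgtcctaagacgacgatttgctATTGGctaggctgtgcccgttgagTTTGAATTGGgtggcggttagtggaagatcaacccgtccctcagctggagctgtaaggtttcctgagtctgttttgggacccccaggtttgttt
Mki67, chr1:199952594-199952843, minus strand: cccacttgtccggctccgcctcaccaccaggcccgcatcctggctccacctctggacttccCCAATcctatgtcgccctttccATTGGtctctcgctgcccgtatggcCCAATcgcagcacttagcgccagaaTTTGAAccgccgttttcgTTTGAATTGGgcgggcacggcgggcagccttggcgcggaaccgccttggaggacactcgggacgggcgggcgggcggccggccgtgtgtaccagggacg
Top2a, chr10:84473094-84473343, minus strand: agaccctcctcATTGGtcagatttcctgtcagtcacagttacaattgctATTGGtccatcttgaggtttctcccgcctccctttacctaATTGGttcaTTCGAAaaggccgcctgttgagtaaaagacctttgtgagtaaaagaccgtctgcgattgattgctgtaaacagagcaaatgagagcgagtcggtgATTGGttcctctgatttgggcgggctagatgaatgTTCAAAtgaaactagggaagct
Hmmr, chr10:25665216-25665465, minus strand: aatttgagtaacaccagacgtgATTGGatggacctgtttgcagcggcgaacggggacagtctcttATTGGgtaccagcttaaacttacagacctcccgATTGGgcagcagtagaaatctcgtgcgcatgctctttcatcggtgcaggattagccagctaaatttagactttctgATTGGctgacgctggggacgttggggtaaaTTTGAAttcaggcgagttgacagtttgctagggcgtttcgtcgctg
Pttg1, chr10:28406327-28406576, minus strand: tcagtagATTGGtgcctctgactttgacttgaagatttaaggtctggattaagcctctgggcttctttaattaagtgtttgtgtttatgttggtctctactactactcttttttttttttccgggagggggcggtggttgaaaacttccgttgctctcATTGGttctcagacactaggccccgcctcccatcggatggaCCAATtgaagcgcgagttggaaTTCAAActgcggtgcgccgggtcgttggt

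At least 1 CCAAT was found in 30 of the 40 member windows (75.0%), against 34.3% of the 27457 windows of all genes in the RefSeq table. At least 2 CCAAT were found in 22 (55.0%), against 9.77% of all windows. A CHR match was found in 21 (52.5%), against 17.3%, and 14 (35.0%) held a CHR match together with at least 2 CCAAT, against 1.79%. The E2F letters were found in 4 (10.0%), against 5.32%. The 27 CHR matches lay at a median of 61 bases before the start, 20 of them within 100 bases, and the 69 CCAAT matches at a median of 104 bases, 45 of them within 150 bases. In 2 cases, those of Cdca8 and Mki67 printed above, a CHR match shared bases with a CCAAT match. No CCAAT or CHR letters stood in the windows of 8 genes, among them Mybl2, Aurka, Plk4 and Bub1. A match is a run of letters and was not tested as a binding site.

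**Figure D1:**
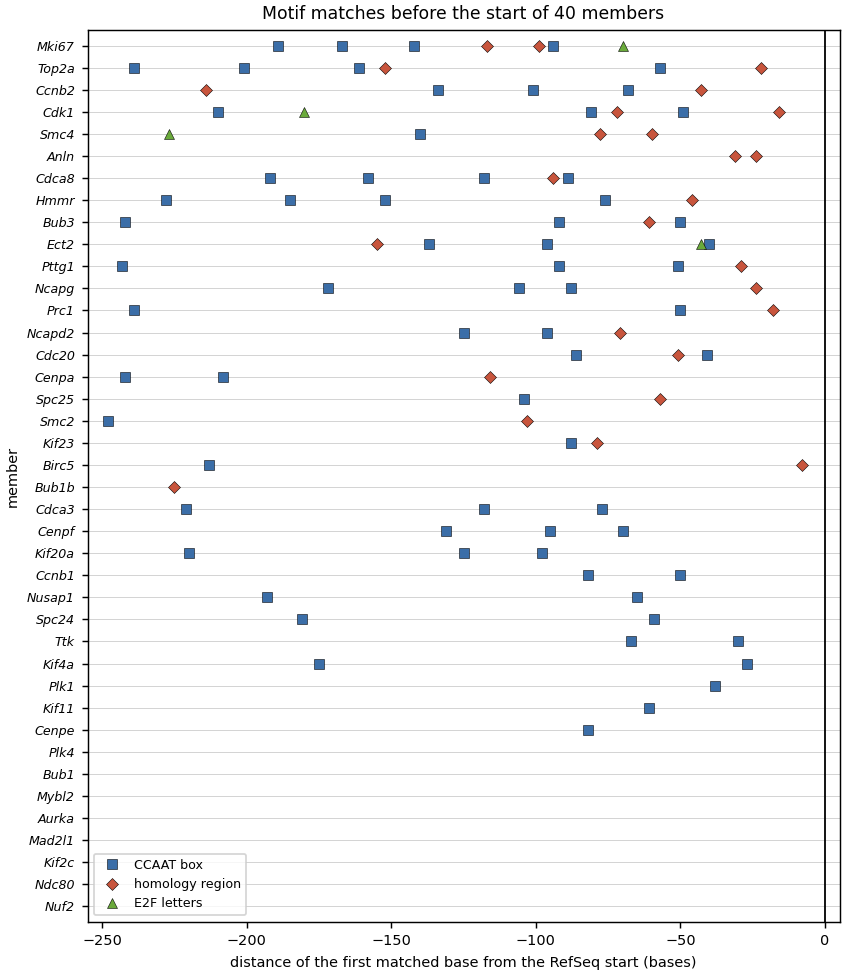
Positions of the CCAAT, homology region (CHR) and E2F letters before the RefSeq start in the windows of 40 genes, one line per gene, with the distance of the first matched base from the start on the x axis in bases. The CHR matches gather close to the start, 20 of 27 within 100 bases, and the bottom 8 genes have no match.

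In the deposited TPM, a level scaled to transcript length and to the same total in every sample, the targeted Piezo1 went against its label. It measured 31.1, 32.99, 26.68 and 29.46 TPM in Lv-Ctrl and 38.1, 37.74, 40.24 and 41.41 TPM in Lv-Piezo1, so that the groups did not overlap and the transcript was higher under the label of its own hairpin (log2 fold change 0.38 ± 0.06 SE, limma adjusted p = 0.00086; exact two-sided permutation p = 0.0286, the smallest that 4 against 4 samples allow). Groups are therefore named by their labels throughout, and each direction is that of the library labelled Lv-Piezo1 against that labelled Lv-Ctrl. The paper reports that knockdown of Piezo1 by Lv-Piezo1 was verified, with measurements other than the transcript levels used here. All 10 AF and fibroblast markers were listed and summed to 7187 to 8081 TPM in Lv-Ctrl and 10550 to 11280 TPM in Lv-Piezo1, with the tendon marker Tnmd at or near 0. Most of that sum was Col1a1 and Col1a2, and of the list Comp was higher and Dcn lower (1460 to 519 TPM) past both thresholds, an adjusted p below 0.05 and a log2 fold change of at least 1 in size. The 11 smooth muscle and pericyte markers summed to 820.4 to 856.1 TPM in Lv-Ctrl and 4542 to 4713 TPM in Lv-Piezo1, with 5 higher and 2 lower past both thresholds. The other lists were at 108.8 to 128.7 against 120.1 to 131.7 TPM for 9 of 10 nucleus pulposus and chondrocyte markers (Shh and Tbxt at 0), 136.4 to 142.9 against 149.5 to 155.6 TPM for 10 macrophage markers (Tyrobp and Adgre1 at 0), 320.8 to 332.3 against 139.6 to 149.2 TPM for 4 Schwann cell markers (Sox10 at 0), under 1 TPM for 6 of 7 endothelial markers (Emcn at 0) and at or near 0 for 1 of 3 erythroid markers. The mitochondrial share of TPM was 7.03% to 7.90% in Lv-Ctrl and 6.05% to 6.53% in Lv-Piezo1. In these lists Cd24 (nucleus pulposus) and Cd68 (macrophage, 0.955 to 12.3 TPM) were higher and S100b (Schwann cell, 328 to 141 TPM, nearly the whole of its list's sum) lower past both thresholds, while Fcer1g, most of the macrophage sum, was at 116 and 113 TPM. The part of these shifts in the results below was not tested. Over the 13103 genes with a mean of at least 1 TPM, the median log2 fold change was 0.14, and median-ratio scaling, which divides each sample by the median ratio of its genes to their geometric mean over samples, moved it to -0.019. The share of genes with an adjusted p below 0.05 was 41.9% higher and 16.3% lower on the deposited values, and 26.7% higher and 29.2% lower after that scaling. The markers Comp (0.738 to 2.86 TPM) and Cd68 had Lv-Ctrl means below 1 TPM. Both reached the mean of 1 TPM needed for testing only through Lv-Piezo1.

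The mitotic genes stood higher in the samples labelled Lv-Piezo1 as a group. Of the 47 genes, 45 reached a mean of 1 TPM and were tested, and 44 of these rose (limma on log2(TPM + 1), adjusted p below 0.05 over all 13103 genes), where 41.9% of all tested genes rose. None of the 45 fell, where 16.3% of all tested genes fell. A log2 fold change of at least 1 beside the adjusted p was reached by 11 genes, Spc24, Prc1, Racgap1, Ube2c, Aurkb, Kif23, Plk1, Plk4, Anln, Cdca3 and Cdca8, where 4.91% of all tested genes reached it, and by 0 in the lower direction, where 2.76% of all tested genes did. The median log2 fold change was 0.81 over the 45 genes, with a range of 0.04 to 1.31, beside 0.14 over all tested genes, and 41 of the 45 lay above the upper quartile of all tested genes, 0.39. After median-ratio scaling the median was 0.65 beside -0.019, 42 genes rose (26.7% of all tested genes), 0 fell (29.2%) and 6 passed both thresholds in the higher direction (3.85%). With a pseudocount of 0.1 in place of 1, 22 genes passed both thresholds, where 7.27% of all tested genes did. In bulk RNA a different share of cycling cells and a different amount of mitotic RNA per cycling cell cannot be told apart.

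**Figure D2:**
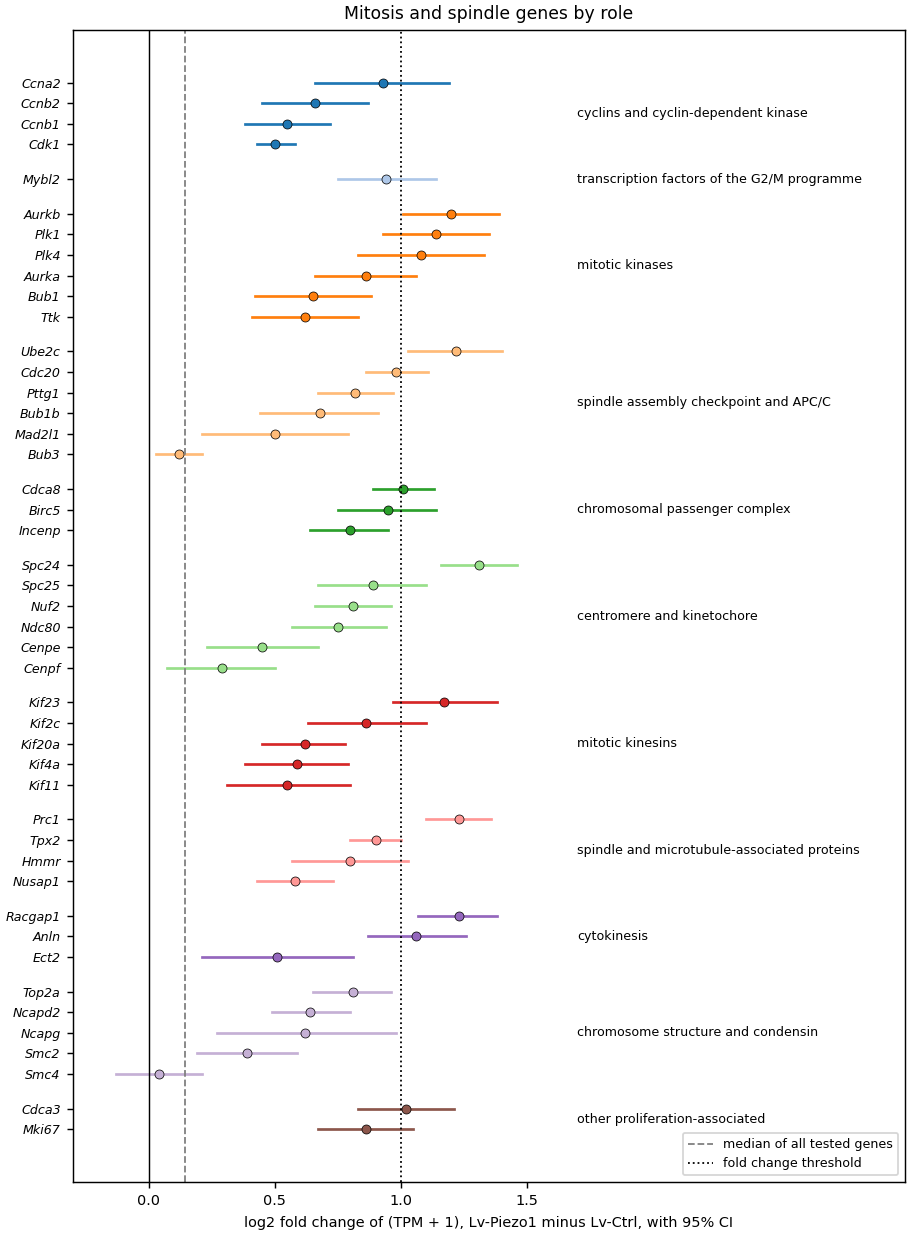
Log2 fold change of (TPM + 1) for the 45 tested genes, Lv-Piezo1 minus Lv-Ctrl, grouped by role; points are limma estimates from 4 samples per group and bars their 95% confidence intervals. All but Smc4 have an interval above 0, most points lie between the median of all tested genes (dashed, 0.14) and the threshold of 1 (dotted), and Spc24, at 1.31, is the highest.

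The summed TPM of the 47 genes separated the groups with little spread. It was 391.6, 392.7, 390.5 and 398.9 TPM in Lv-Ctrl and 680.3, 672.9, 664.2 and 683.9 TPM in Lv-Piezo1. Cdk1 alone held 32.6% of the sum in Lv-Ctrl and 27.0% in Lv-Piezo1, and without it the sum was 265.1 ± 4.18 against 492.9 ± 6.52 TPM (SD, n = 4 each). In 43 of the 45 tested genes the lowest Lv-Piezo1 value exceeded the highest Lv-Ctrl value, where 39.8% of all tested genes did so, and the groups overlapped for Mad2l1 and Smc4. The ratio of the group means was between 1.03 and 2.70 with a median of 1.98, and reached 2 in 22 genes. The order of the levels was nearly the same in both groups (Spearman rho 0.971 across genes, which share their libraries and are not independent replicates). Over the 45 tested genes the coefficient of variation within a group had a median of 8.20% in Lv-Ctrl and 7.12% in Lv-Piezo1, and its highest value was 29.1%. Low levels were common, with a mean below 2 TPM in Lv-Ctrl for 14 of the 47 genes. Ncapg was the 1 tested gene with a Lv-Ctrl mean below 1 TPM, so it passed the limit for testing only through the group where it is high.

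**Figure D3:**
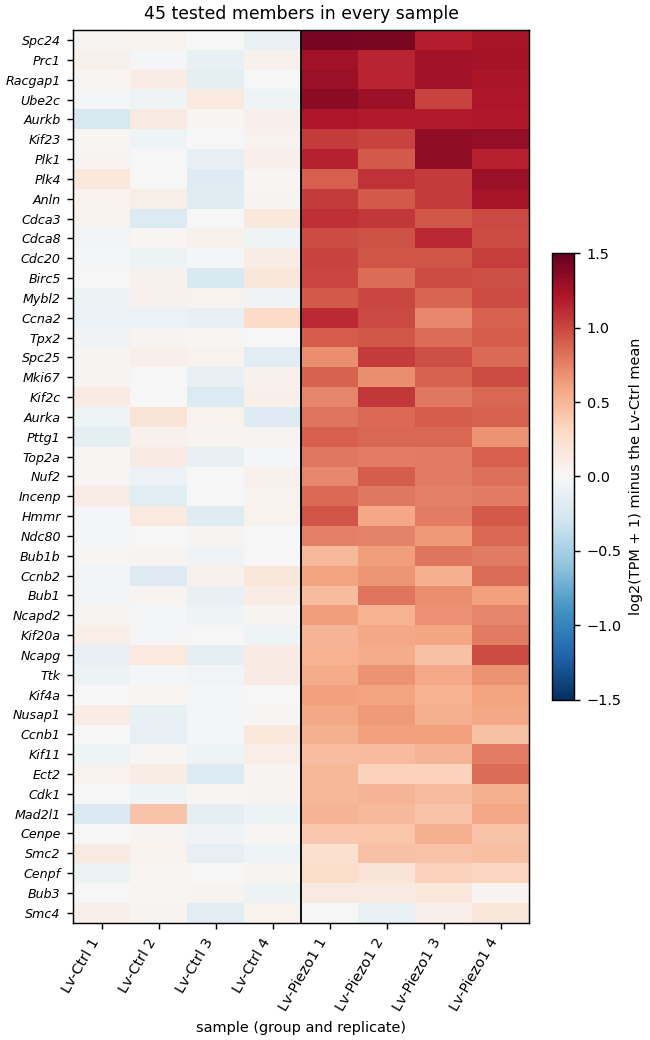
Level of the 45 tested genes in each of the 8 samples, as log2(TPM + 1) minus the mean of the Lv-Ctrl samples, ordered by log2 fold change (colour scale from -1.5 to 1.5). The 4 Lv-Piezo1 columns are red for all genes but the last few, Bub3 and Smc4 are near 0 in every column, and Mad2l1 in Lv-Ctrl sample 2 is the reddest Lv-Ctrl cell.

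Among the cyclins and their kinase, all 4 genes rose and none reached a log2 fold change of 1 (median 0.61). Cdk1, the kinase that drives entry into mitosis, was the most abundant of the 47 genes at 127.72, 123.00, 130.54 and 132.11 TPM in Lv-Ctrl and 181.56, 183.09, 178.93 and 185.96 TPM in Lv-Piezo1. Its groups were far apart against their spread, and the log2 fold change was 0.50 ± 0.03 (SE, limma adjusted p = 1.5e-06). Its partners were much less abundant. Cyclin B1, encoded by Ccnb1, had 5.54, 5.03, 5.51 and 6.33 TPM in Lv-Ctrl and 8.52, 9.08, 9.12 and 7.91 TPM in Lv-Piezo1, a log2 fold change of 0.55 ± 0.08. Cyclin B2 (Ccnb2) went from 7.89 ± 0.95 to 13.0 ± 1.32 TPM (mean ± SD of 4 samples, as below), or 0.66 on the log2 scale. Cyclin A2 (Ccna2), which acts from S phase into early mitosis, had the largest change of the 4. It measured 2.66, 2.67, 2.59 and 3.73 TPM in Lv-Ctrl, with sample 4 above the other 3, and 7.41, 6.72, 5.40 and 6.16 TPM in Lv-Piezo1 (log2 fold change 0.93 ± 0.12 SE, adjusted p = 0.00015), and without Lv-Ctrl sample 4 the log2 fold change was 1.02. How reads shared between a gene and its pseudogenes were counted is not given in the sources used here, which bears on abundant genes such as Cdk1.

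The transcription factors B-Myb and FOXM1 act with the MuvB complex at mitotic promoters in G2 and M, and both transcripts were low. Mybl2, which encodes B-Myb, was at 1.20, 1.43, 1.41 and 1.23 TPM in Lv-Ctrl and 3.39, 3.64, 3.23 and 3.57 TPM in Lv-Piezo1. The groups did not overlap, and the log2 fold change was 0.94 ± 0.09 (SE, adjusted p = 1.6e-05). Foxm1 had a mean of 0.146 TPM over all samples and was below the limit for testing. Its values were 0.04, 0.21, 0.14 and 0.10 TPM in Lv-Ctrl and 0.33, 0.23, 0.12 and 0.00 TPM in Lv-Piezo1, which overlap (exact two-sided permutation p = 0.657).

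The 6 mitotic kinases rose with a median log2 fold change of 0.97, and 3 of them passed both thresholds. Aurora B (Aurkb), which corrects faulty attachments of chromosomes to the spindle, was at 3.07, 4.27, 3.91 and 4.04 TPM in Lv-Ctrl and at 10.15, 9.94, 9.99 and 10.04 TPM in Lv-Piezo1. The Lv-Piezo1 values were nearly identical to each other and all above the Lv-Ctrl values, with a log2 fold change of 1.20 ± 0.08 (SE, adjusted p = 3.0e-06). Polo-like kinase 1 (Plk1), which acts at centrosomes, kinetochores and the midzone, had 3.59, 3.48, 3.09 and 3.68 TPM in Lv-Ctrl and 8.95, 7.42, 10.16 and 8.98 TPM in Lv-Piezo1 (log2 fold change 1.14 ± 0.09 SE). Plk4, which starts the duplication of centrioles, had 2.23, 1.91, 1.54 and 1.95 TPM in Lv-Ctrl and 4.39, 5.12, 4.98 and 6.09 TPM in Lv-Piezo1 (log2 fold change 1.08 ± 0.11 SE). Neither kinase overlapped between the groups, and both stayed below a log2 fold change of 1 after median-ratio scaling, at 0.99 for Plk1 and 0.94 for Plk4. Aurora A (Aurka), which matures centrosomes, went from 3.85 ± 0.553 to 7.77 ± 0.267 TPM, a log2 fold change of 0.86. The checkpoint kinases had the smallest log2 fold changes of the 6, 0.65 for Bub1 and 0.62 for Ttk.

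Genes of the spindle assembly checkpoint and the APC/C spanned nearly the whole range of the 47. All 6 rose, with a median log2 fold change of 0.75. Ube2c, the ubiquitin-conjugating enzyme that works with the APC/C, was at 13.90, 13.51, 15.73 and 13.46 TPM in Lv-Ctrl and 37.63, 35.77, 29.50 and 34.13 TPM in Lv-Piezo1. The groups lay far apart, and the log2 fold change was 1.22 ± 0.08 (SE, adjusted p = 2.1e-06). The APC/C activator Cdc20 went from 7.66 ± 0.485 to 16.1 ± 0.618 TPM, just under the threshold at 0.98 ± 0.06 (SE), and had 1.02 without Lv-Ctrl sample 4. Securin (Pttg1), which holds back the protease that parts sister chromatids, went from 15.8 ± 1.14 to 28.6 ± 1.97 TPM, a log2 fold change of 0.82. The checkpoint genes whose products hold back the APC/C had smaller values on this scale. Bub1b, which encodes BubR1, had a log2 fold change of 0.68 and Mad2l1, which encodes Mad2, 0.50. Bub1b was low, at means of 1.22 TPM in Lv-Ctrl and 2.56 TPM in Lv-Piezo1. With a pseudocount of 0.1 it was at 1.00, between Pttg1 (0.86) and Cdc20 (1.06), while Mad2l1 was at 0.55. Mad2l1 measured 6.15, 10.13, 6.53 and 6.86 TPM in Lv-Ctrl and 10.81, 10.62, 10.10 and 11.37 TPM in Lv-Piezo1, so that Lv-Ctrl sample 2 lay within the Lv-Piezo1 range (adjusted p = 0.0088). Without that sample its log2 fold change was 0.64. Bub3, which also has roles outside mitosis, was the most abundant of these 6 at 43.36, 44.44, 44.56 and 41.24 TPM in Lv-Ctrl and 47.86, 47.61, 48.43 and 44.78 TPM in Lv-Piezo1. The groups did not overlap but almost touched, and the log2 fold change of 0.12 ± 0.04 (SE, adjusted p = 0.032), below the median of all tested genes, turned to -0.06 (adjusted p = 0.38) after median-ratio scaling.

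The chromosomal passenger complex, which brings Aurora B to centromeres and then to the midzone, rose in all 3 of its non-kinase subunits. Cdca8, which encodes borealin and whose promoter is printed above, had 12.89, 13.60, 13.96 and 12.60 TPM in Lv-Ctrl and 27.12, 26.73, 30.22 and 27.00 TPM in Lv-Piezo1. The 2 groups were well apart (log2 fold change 1.01 ± 0.05 SE, adjusted p = 5.6e-07), but the fold threshold itself was missed at 0.97 without Lv-Piezo1 sample 3, at 0.99 without Lv-Ctrl sample 4, and marginally without Lv-Ctrl sample 1 or without mitochondrially encoded genes. Survivin (Birc5) went from 5.11 ± 0.687 to 10.7 ± 0.567 TPM, a log2 fold change of 0.95 that was 1.00 without Lv-Ctrl sample 4. The scaffold Incenp went from 6.42 ± 0.603 to 11.9 ± 0.353 TPM, a log2 fold change of 0.80.

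At the centromere and kinetochore all 6 tested genes rose, with a median log2 fold change of 0.78. The highest values were those of the NDC80 complex, which holds the microtubule end. With the pseudocount of 1, Spc24 had the largest log2 fold change of the 45 tested genes. Spc24 measured 19.48, 19.71, 19.11 and 17.57 TPM in Lv-Ctrl and 52.53, 51.95, 44.15 and 45.99 TPM in Lv-Piezo1, with no overlap and a log2 fold change of 1.31 ± 0.07 (SE, adjusted p = 3.8e-07). With a pseudocount of 0.1 Spc24 was at 1.35, below Racgap1 (1.41), Plk4 (1.39), Kif23 (1.39) and Aurkb (1.38). With the pseudocount of 1, its partner Spc25 had a log2 fold change of 0.89, Nuf2 of 0.81 and Ndc80 of 0.75. Cenpe, a kinetochore motor, had 0.45, and Cenpf, a kinetochore and nuclear envelope protein, had 1.17, 1.33, 1.28 and 1.35 TPM in Lv-Ctrl and 1.77, 1.61, 1.90 and 1.85 TPM in Lv-Piezo1. The groups of Cenpf did not overlap, yet its log2 fold change of 0.29 (adjusted p = 0.028) became 0.18 (adjusted p = 0.12) after median-ratio scaling. Cenpa, the histone H3 variant that marks centromeres, had a mean of 0.941 TPM and so was just below the limit for testing. Its values were 0.56, 0.40, 0.58 and 0.48 TPM in Lv-Ctrl and 1.45, 1.33, 1.38 and 1.35 TPM in Lv-Piezo1, with no overlap (exact two-sided permutation p = 0.0286), and in a fit with no limit on low TPM its log2 fold change was 0.66 ± 0.06 (SE, adjusted p = 5.1e-05).

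All 5 mitotic kinesins rose, with a median log2 fold change of 0.62. Kif23, the motor part of centralspindlin at the midzone, stood above the rest. It measured 3.08, 2.80, 2.96 and 3.12 TPM in Lv-Ctrl and 7.22, 7.06, 8.99 and 8.92 TPM in Lv-Piezo1 (log2 fold change 1.17 ± 0.09 SE, adjusted p = 5.5e-06). Kif20a, a midzone motor and the most abundant of the 5, had 6.17, 5.54, 5.63 and 5.39 TPM in Lv-Ctrl and 8.49, 9.00, 9.07 and 10.50 TPM in Lv-Piezo1, a smaller log2 fold change of 0.62 ± 0.07. Neither gene overlapped between the groups. The microtubule depolymerase Kif2c had a log2 fold change of 0.86, the chromokinesin Kif4a 0.59 and Kif11, which pushes the spindle poles apart, 0.55. Kif4a and Kif11 were low, at Lv-Ctrl means of 1.04 and 1.26 TPM. With a pseudocount of 0.1 they were at 0.92 and 0.83, above Kif20a at 0.69.

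The spindle-associated proteins all rose (median log2 fold change 0.85). Prc1, which bundles the microtubules of the midzone, had 9.14, 8.56, 8.03 and 9.20 TPM in Lv-Ctrl and 22.34, 20.48, 22.32 and 22.08 TPM in Lv-Piezo1. Its groups were far apart, with a log2 fold change of 1.23 ± 0.06 (SE, adjusted p = 2.0e-07). Tpx2, which activates Aurora A on the spindle, went from 10.0 ± 0.335 to 19.5 ± 0.53 TPM, a log2 fold change of 0.90. The hyaluronan-mediated motility receptor Hmmr, which binds spindle microtubules and whose promoter is printed above, went from 4.43 ± 0.514 to 8.47 ± 1.08 TPM, a log2 fold change of 0.80, and Nusap1 had 0.58.

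Cytokinesis genes had the highest median log2 fold change of the roles with 3 or more tested genes, 1.06. Racgap1, the other part of centralspindlin, was at 3.89, 4.19, 3.37 and 3.79 TPM in Lv-Ctrl and 10.75, 9.57, 10.47 and 10.18 TPM in Lv-Piezo1, with no overlap (log2 fold change 1.23 ± 0.07 SE, adjusted p = 8.4e-07). Anillin (Anln), which scaffolds the contractile ring, had 5.35, 5.46, 4.37 and 5.29 TPM in Lv-Ctrl and 11.62, 10.50, 11.64 and 13.34 TPM in Lv-Piezo1. It did not overlap either, with a log2 fold change of 1.06 ± 0.09 (SE, adjusted p = 8.2e-06). Ect2, the exchange factor that activates RhoA at the cleavage site, changed less, with 0.51 ± 0.13 (SE, adjusted p = 0.0089).

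**Figure D4:**
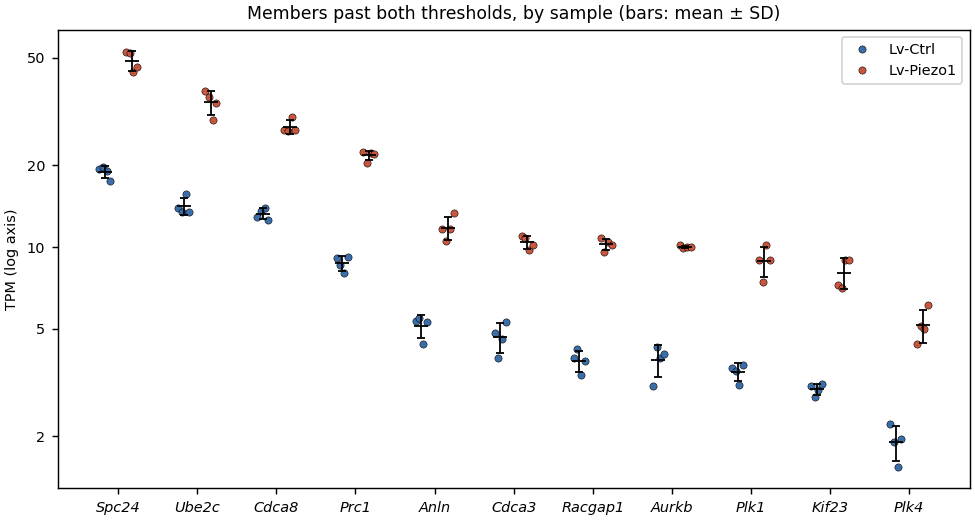
TPM on a log axis of the 11 genes past both thresholds in each of the 4 Lv-Ctrl and 4 Lv-Piezo1 samples; points are samples and bars the mean ± SD. In every one of the 11 genes the lowest Lv-Piezo1 sample lies above the highest Lv-Ctrl sample, from Plk4 at the low end (2.23 against 4.39 TPM) to Spc24 at the high end (19.71 against 44.15 TPM).

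Genes of chromosome structure differed among themselves. Top2a, the topoisomerase that untangles sister chromatids, went from 4.47 ± 0.367 to 8.56 ± 0.403 TPM, a log2 fold change of 0.81. Of the condensin genes, the regulatory subunits Ncapd2 and Ncapg rose with log2 fold changes of 0.64 and 0.62. With a pseudocount of 0.1 these were 0.76 for Ncapd2 and 1.12 for Ncapg, beside 0.92 for Top2a. Ncapg measured 0.54, 0.86, 0.51 and 0.83 TPM in Lv-Ctrl and 1.40, 1.47, 1.28 and 2.31 TPM in Lv-Piezo1, with the highest spread in Lv-Piezo1 sample 4. The core ATPase Smc2 had 3.03, 2.82, 2.39 and 2.53 TPM in Lv-Ctrl and 3.35, 4.01, 3.96 and 4.03 TPM in Lv-Piezo1, a log2 fold change of 0.39 (adjusted p = 0.0048). Its partner Smc4 was the 1 tested gene that did not pass the test. Its values of 15.04, 14.66, 12.58 and 14.78 TPM in Lv-Ctrl and 14.34, 13.17, 15.08 and 16.10 TPM in Lv-Piezo1 overlapped, and the log2 fold change of 0.04 (95% confidence interval -0.13 to 0.21, adjusted p = 0.69) turned to -0.13 after median-ratio scaling, also to -0.13 after quantile normalization, to -0.02 without Lv-Ctrl sample 3 and to -0.01 without Lv-Piezo1 sample 4.

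The remaining 2 genes are used as signs of proliferation. Mki67, which encodes the Ki-67 antigen that coats mitotic chromosomes, went from 2.84 ± 0.206 to 5.98 ± 0.55 TPM, a log2 fold change of 0.86. Cdca3, which targets the kinase Wee1 for destruction, had 4.83, 3.88, 4.58 and 5.27 TPM in Lv-Ctrl and 11.01, 10.76, 9.73 and 10.20 TPM in Lv-Piezo1. The groups of Cdca3 did not overlap, with a log2 fold change of 1.02 ± 0.08 (SE, adjusted p = 8.4e-06), which was 0.96 without Lv-Ctrl sample 2 and just under the fold threshold without Lv-Piezo1 sample 1.

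Genes whose products bind each other did not all move by the same amount. The pairs below were chosen after the values had been seen and carry no test. The ratio of Spc24 to Nuf2 TPM was 4.58 ± 0.449 in Lv-Ctrl and 6.07 ± 0.663 in Lv-Piezo1, and the ratio of Aurkb to Incenp 0.605 ± 0.132 and 0.847 ± 0.0194 (SD over samples), both with no overlap between the groups. In the other direction, the ratio of Smc4 to Smc2 was 5.32 ± 0.373 in Lv-Ctrl and 3.84 ± 0.42 in Lv-Piezo1, and that of Cdk1 to Ccna2 45.0 ± 6.61 and 28.8 ± 3.72, again with no overlap. These ratios are taken within a sample and do not change when the whole sample is rescaled. Other pairs overlapped between the groups, among them both parts of centralspindlin, with a ratio of Racgap1 to Kif23 of 1.28 ± 0.154 and 1.29 ± 0.165, and Nuf2 to Ndc80, with 2.30 ± 0.129 and 2.16 ± 0.193. Cdk1 to Ccnb1 overlapped as well, with 23.0 ± 1.54 and 21.2 ± 1.72. So did Spc24 to its partner Spc25, with 5.54 ± 0.293 and 6.83 ± 1.19. Within the chromosomal passenger complex, Cdca8 to Incenp (2.09 ± 0.278 and 2.35 ± 0.19) and Birc5 to Incenp (0.802 ± 0.134 and 0.905 ± 0.0472) also overlapped. The ratios named above as having no overlap were the only such ones among the pairs taken.

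Other genes of the same pathways were measured too, and their counts stand beside the 41.9% of all tested genes that rose and the 16.3% that fell (26.7% and 29.2% after median-ratio scaling). Genes with a Lv-Ctrl mean below 1 TPM passed the limit for testing only through Lv-Piezo1, and these were 5 of the tested kinetochore and centromere genes, 2 of the spindle genes, 2 of the entry and exit regulators, 1 of the APC/C, cohesin and condensin genes and 4 of the DNA replication genes. Of these, 5, 1, 1, 1 and 4 rose, in the same order, and they are included in the counts below. Of 31 tested kinetochore and centromere genes 26 rose and 0 fell, with a median log2 fold change of 0.51, and after median-ratio scaling 17 rose and 1 fell with a median of 0.42. Cenpm and Cenpt, parts of the inner kinetochore, passed both thresholds, at 1.22 each, and still did after that scaling. Of 34 tested genes of the spindle, centrosome and cytokinesis 27 rose and 1 fell (median 0.56), with 6 past both thresholds. After median-ratio scaling 25 rose, 3 fell and 2, Ckap2 and Iqgap3, passed both. The 6 were Ckap2 (1.21) and Kif18b (1.04), which act on spindle microtubules, Tacc3 (1.08), which stabilises them, the minus-end kinesin Kifc1 (1.08), the scaffold Iqgap3 (1.16) and Troap (1.01). The one that fell was Dlgap5, a spindle assembly factor, at 43.73, 43.04, 42.42 and 42.80 TPM in Lv-Ctrl and 26.94, 27.69, 29.42 and 27.73 TPM in Lv-Piezo1. The groups did not overlap, and the log2 fold change was -0.60 (adjusted p = 1.4e-06). Dlgap5 and the other genes named below as having fallen were chosen after their values had been seen.

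Regulators of entry into and exit from mitosis had the highest median of the lists outside the 47, 0.69, with 15 of 17 tested genes rising and 1, Bora, falling (12 and 1 after median-ratio scaling, with a median of 0.54). Pkmyt1, the kinase that inhibits Cdk1 at the membrane, was at 3.59, 4.20, 2.96 and 3.02 TPM in Lv-Ctrl and 14.46, 12.61, 12.76 and 13.36 TPM in Lv-Piezo1. That change, with no overlap and a log2 fold change of 1.69 ± 0.10 (SE, adjusted p = 7.8e-07), was above that of any of the 47 genes. Cdkn3, a phosphatase of cyclin-dependent kinases, Gtse1, which binds p53 and microtubules, and Melk, a mitotic kinase, also passed both thresholds, at 1.21, 1.16 and 1.01, and of these 4 genes Pkmyt1 and Cdkn3 still did after median-ratio scaling. The APC/C, cohesin and condensin genes outside the 47 had counts nearer to those of all tested genes. Of 32 tested, 11 rose and 8 fell, with a median of 0.09, and 9 rose and 13 fell after median-ratio scaling, with a median of -0.08. Among those that rose were Ncaph, the condensin subunit, from 2.01 to 4.95 TPM, and Cdca5, which protects cohesin, from 1.65 to 4.12 TPM.

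Earlier stages of the cycle were also measured. Of 50 tested DNA replication and S-phase genes 39 rose and 1, Gins4, fell, with a median of 0.51 and 5 past both thresholds. These were the replication licensing gene Cdt1 at 1.58, the helicase subunit Mcm5 at 1.40, the chromatin assembly subunit Chaf1b at 1.21, the ribonucleotide reductase subunit Rrm2 at 1.15 and Gins1 at 1.00. After median-ratio scaling 34 rose and 2 fell with a median of 0.36, and Cdt1, Mcm5 and Chaf1b were the 3 still past both thresholds. Chaf1b, at a Lv-Ctrl mean of 0.92 TPM, passed the limit for testing only through Lv-Piezo1. Of 23 tested genes of the G1 cyclins, E2F, RB and MuvB group 9 rose, a share near that of all tested genes, and 1, E2f5, fell, with a median of 0.21, and cyclin E1 (Ccne1) passed both thresholds at 1.16. After median-ratio scaling 8 of that group rose and 4 fell, with a median of 0.07 and 0 past both thresholds. Of 12 inhibitors of cyclin-dependent kinases and p53 arrest genes 6 rose and 2 fell (5 and 5 after median-ratio scaling). Cdkn1a, which encodes p21, was among those that rose and went from 117 ± 12.4 to 217 ± 8.9 TPM (log2 fold change 0.89), and Cdkn1c, which encodes p57, from 4.79 ± 0.549 to 9.24 ± 0.9 TPM (0.82). Cdkn2a, which encodes the inhibitor p16 and the p53 activator Arf, fell from 128 ± 3.5 to 74.3 ± 6.31 TPM (log2 fold change -0.78).

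**Figure D5:**
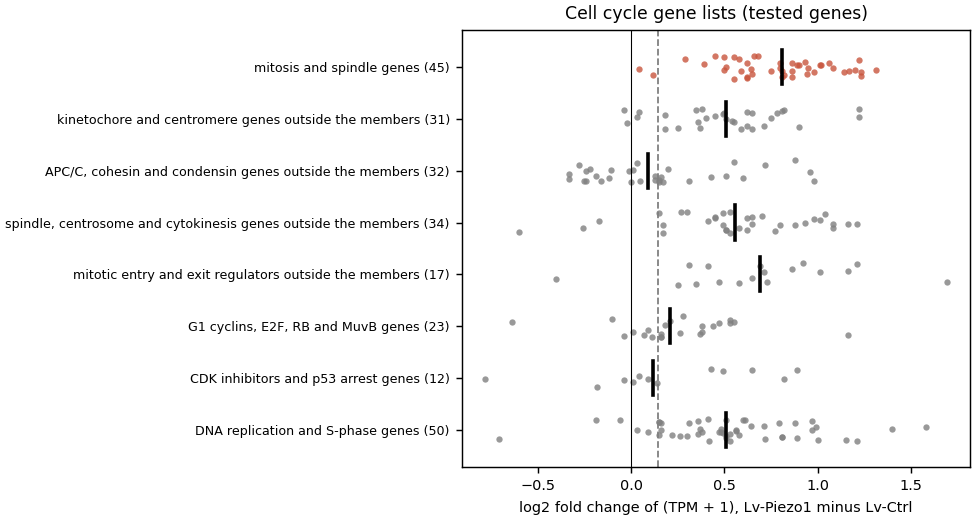
Log2 fold change of (TPM + 1), Lv-Piezo1 minus Lv-Ctrl, of every tested gene of the 47 and of the 7 other cell cycle lists (number tested in brackets); points are genes, thick bars the list medians and the dashed line the median of all tested genes, 0.14. The mitosis and spindle genes have the highest median, 0.81, and the APC/C, cohesin and condensin genes outside them and the arrest genes lie around the dashed line.

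The promoter letters were set beside the measured changes as a description. The 20 tested genes of the 47 with a CHR match had a median log2 fold change of 0.80, and the 19 with a window but no match 0.65. Both medians take the pseudocount of 1, and the gap between them depends on it. With a pseudocount of 0.1, Kif4a, which had no CHR match, moved from 0.59 to 0.92. Bub1b, which had a CHR match, moved from 0.68 to 1.00. The gap was not tested. Genes with and without the letters were found at both ends, since Spc24 and Plk4 had no CHR match at 1.31 and 1.08, while Smc4, at 0.04, had 2 CHR matches. Outside the 47, the 140 tested genes with a CHR match and at least 2 CCAAT had a median log2 fold change of 0.25 and 59.3% of them rose, beside 0.15 and 45.0% of the 8789 other tested genes with a window. For the 126 of the 140 that are in none of the cell cycle lists the values were 0.25 and 58.7%.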

How the data were processed

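RNA of 8 samples of stretched rat AFCs (4 Lv-Ctrl, 4 Lv-Piezo1) was sequenced. The authors filtered reads, mapped them with HISAT2 to the rat genome and assembled transcripts with StringTie. The table deposited by the authors holds TPM rounded to 2 decimals. The methods name FPKM, and the submitters' processing notes list DESeq2 and mm10, a mouse build, although the gene identifiers are those of rat. How the TPM were made and which annotation was used are not given in the sources used here. TPM keeps no depth, so depth is unknown and precision rests on the 4 samples of a group.

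From the deposited TPM, log2(TPM + 1) was taken for the 13103 genes averaging 1 TPM or more over all samples, and was fitted with limma 3.58.1 in R 4.3.3 (moderation with a trend, Benjamini-Hochberg adjustment over all tested genes, no block). Fold changes on this scale understate changes of low genes. In the text "rose" and "fell" mean an adjusted p below 0.05, and "both thresholds" adds a log2 change of 1 or more in size. For single values an exact permutation test, two-sided, ran over 70 relabelings. The labels do not say whether a replicate number marks a shared isolation. The methods count the AFCs of an isolation, given different treatments, as an independent repeat, so the samples may be paired. Deviations of same-numbered samples correlated at -0.0124 to -0.0576, which does not settle whether they pair, and the block was used only as an alternative.

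The 47 genes, the other lists and the motifs were written from general knowledge and chosen with earlier results of these data known, so they are no independent evidence of a direction. All members may be named. By rule, sample values are given for members past both thresholds, for the most abundant member of a role and for those that did not pass; those of Ccnb1, Ccna2, Mad2l1, Cenpf, Ncapg, Smc2 and Cenpa were added after values were seen, and from other lists the genes past both thresholds or else the largest changes. Promoter windows are from RefSeq (GRCr8), and 7 of the 47 genes were not matched there. No column of sample values was left unused (0). Alternatives were leaving out each sample, the replicate number as a block, moderation with no trend, removal of mitochondrial genes, quantile normalization, median-ratio scaling, a pseudocount of 0.1, and no filter or one at a mean of 5 TPM.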

Additional observations from a re-analysis of the deposited data

Results flagged for a closer look

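In 12 of 96 groups of 4 values (each of the 47 genes and Piezo1 in each group), 1 sample lay far from the other 3, with its gap to the nearest sample above Dixon's critical share of the range for 4 samples. Chance flags about 1 in 20 groups, or 4.8 of 96. In Lv-Ctrl these were Ccna2 at 3.73 TPM and Spc25 at 2.94 TPM in sample 4, Anln at 4.37 TPM and Smc4 at 12.58 TPM in sample 3, and Pttg1 at 14.06 TPM in sample 1. In Lv-Piezo1 they were Pttg1 at 25.70 TPM, Kif11 at 2.86 TPM and Top2a at 9.16 TPM in sample 4, Cdca8 at 30.22 TPM and Kif4a at 1.93 TPM in sample 3, Prc1 at 20.48 TPM in sample 2 and Smc2 at 3.35 TPM in sample 1. Each deviating value still lay on its own group's side of the other group. For Smc4 it was the remaining Lv-Ctrl values that lay within the Lv-Piezo1 range. No sample carried more than 3 of the 12 values, and the cause was not tested.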

How the results depend on the processing

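Depth is unknown, and a fold change of genes near 1 TPM depends on the pseudocount, so the count past both thresholds is less firm than the count that rose. That count was 11, and was 6 after median-ratio scaling (Spc24, Racgap1, Prc1, Aurkb, Ube2c and Kif23), 5 after quantile normalization, 22 with a pseudocount of 0.1 (where 7.27% of all tested genes were higher past both thresholds) and 10 to 13 leaving out each sample in turn. The number that rose was 44, and was 28 of the 29 genes tested at a mean of at least 5 TPM, 37 after quantile normalization, 42 after median-ratio scaling and 43 to 44 leaving out each sample in turn, and 0 fell in any of these. The median log2 fold change of 0.81 was 0.86 at a mean of at least 5 TPM, 0.65 after median-ratio scaling, 0.95 with a pseudocount of 0.1 and 0.61 after quantile normalization. Its distance of 0.67 from the median of all tested genes was 0.73 at a mean of at least 5 TPM and also with no filter, 0.80 with a pseudocount of 0.1 and 0.62 after quantile normalization. Bub3 reversed to -0.06 after median-ratio scaling, and Smc4 to -0.13 after median-ratio scaling, also to -0.13 after quantile normalization (its range leaving out each sample in turn was -0.02 to 0.09), to -0.02 without Lv-Ctrl replicate 3 and to -0.01 without Lv-Piezo1 replicate 4. At a mean of at least 5 TPM fewer genes are tested, and the counts that rose were 7 of the other kinetochore genes (17 after median-ratio scaling, 13 after quantile normalization, 26 as reported), 6 of the APC/C, cohesin and condensin genes, 16 of the spindle, centrosome and cytokinesis genes, 6 of the entry and exit regulators and 24 of the DNA replication genes. Deviations of same-numbered samples correlated at -0.0124 to -0.0576, which does not settle whether they pair. With the replicate number as a block 11 genes passed both thresholds and 43 rose, with Cenpf (limma adjusted p = 0.087) past neither. Of the other kinetochore genes 19 rose with that block, and 19 to 23 leaving out each sample in turn. Piezo1 stayed higher in Lv-Piezo1 in every setting, at 0.21 after median-ratio scaling and 0.33 to 0.43 leaving out each sample in turn. The cause of these changes was not tested.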
